A study of Rattus norvegicus with 4 samples.

Results

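Genes of the distal nephron and the collecting duct were followed in 4 libraries of rat glomeruli. The members were 9 genes chosen by name for their segment, none of them a solute carrier gene: Umod, Kcnj1 and Egf for the thick ascending limb, Calb1 and Pvalb for the distal tubule, Aqp2, Aqp3 and Scnn1a for principal cells of the collecting duct, and Foxi1 for intercalated cells. Of these, 8 carried a value under their symbol among 13261 genes used, and Pvalb was not analysed here. All 4 libraries form a single group of male Wistar rats that received Adriamycin (ADR, doxorubicin) by vein, an anthracycline that injures podocytes in rodents and so leads to protein loss in the urine. Per the labels' protocols, kidneys were taken on either of a pair of harvest days, not assigned to single samples, and glomeruli were isolated with sieves. The rats carried no labelled genetic change, and libraries of untreated rats were not analysed here. The libraries are called replicates 1 to 4; the labels do not say that each came from a separate rat, so p-values measure only the spread between these samples. Since all libraries share 1 treatment, conditions cannot be compared. The question is how the distal genes differed between replicates and whether a steady list mean covered opposite differences between segments.

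Filtrate leaving the loop of Henle passes the thick ascending limb, which reabsorbs salt without water, then the distal convoluted and connecting tubule, where sodium, calcium and magnesium uptake is tuned, and last the collecting duct. There, principal cells take up sodium and, under vasopressin, water, while intercalated cells secrete acid or base. The thick limb returns to its own glomerulus at the macula densa, and the other distal segments lie in the tissue around glomeruli. A sieved preparation of glomeruli can therefore carry distal tubule fragments. In such bulk RNA, fewer cells of a type and less RNA per cell cannot be told apart.

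The upstream sequences of Egf, Aqp2 and Aqp3 are shown because these 3 members differed most between replicates among those with a mean of at least 100 reads, and Aqp2 differed in the opposite sense to Egf. They are the bases before the transcription start in RefSeq's GRCr8 assembly, read 5′ to 3′ on the gene's strand and ending where RefSeq's gene span begins. The window of Egf is chr2:220976332-220976547 on the minus strand, that of Aqp2 is chr7:132590036-132590285 on the plus strand, and that of Aqp3 is chr5:61040684-61040933 on the minus strand. Capitals mark 3 short motifs, searched on both strands. TATAA is the core of a TATA box. The core of a cAMP response element is TGACG, which appears below as its reverse complement. The E-box searched was CACGTG, and no matches overlapped.
Egf: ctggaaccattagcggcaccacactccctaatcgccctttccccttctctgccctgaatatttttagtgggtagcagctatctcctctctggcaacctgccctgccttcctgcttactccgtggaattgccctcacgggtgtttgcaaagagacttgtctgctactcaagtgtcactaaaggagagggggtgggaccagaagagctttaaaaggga
Aqp2: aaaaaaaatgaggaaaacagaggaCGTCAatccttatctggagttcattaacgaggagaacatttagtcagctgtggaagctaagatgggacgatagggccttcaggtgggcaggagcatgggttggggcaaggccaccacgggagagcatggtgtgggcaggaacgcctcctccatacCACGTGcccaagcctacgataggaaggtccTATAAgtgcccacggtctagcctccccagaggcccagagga
Aqp3: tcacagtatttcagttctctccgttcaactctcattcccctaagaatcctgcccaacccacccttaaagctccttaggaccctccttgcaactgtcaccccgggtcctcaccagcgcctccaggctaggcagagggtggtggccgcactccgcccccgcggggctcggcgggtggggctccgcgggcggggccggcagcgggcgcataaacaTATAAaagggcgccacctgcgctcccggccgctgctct
In the 250 bases of Aqp2 each motif occurred once, beginning 226 bases before the start for the cAMP response core, 71 for the E-box and 41 for the TATA core. The Aqp3 window held the TATA core alone, beginning 38 bases before the start. None of the 3 motifs occurred in the 216 bases of Egf, a statement about these letters in this window only. Over 33469 RefSeq windows of 250 bases, 24.0% held the TATA core, 18.2% the cAMP response core and 5.59% the E-box. Over the matching 216 bases the shares were 21.0%, 15.1% and 4.68%. The files bear on RNA levels and hold no measurement at these sequences.

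Libraries held 13566962 to 16207027 reads in the genes used. Podocyte genes, which define the labelled tissue, were present for 12 of 12 listed markers, with list means of 8.11 to 9.15 log2 CPM (CPM: reads scaled to the same library total). Proximal tubule markers were also present, 12 of 12, at 7.99 to 9.07 log2 CPM. None of 4 urothelial markers had a value among the genes analysed. Levels were not divided by transcript length, so values below are compared between replicates and never between genes.

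Among thick limb members, Umod and Egf were high in replicate 1 and low in replicate 2, whereas Kcnj1 was nearly level. Umod (ENSRNOG00000015557) encodes uromodulin, the main protein of normal urine, which is made in the thick limb. It had 5822, 3820, 5318 and 4878 reads in replicates 1 to 4, or 429, 236, 346 and 320 CPM. Replicate 1 was highest and replicate 2 lowest, and the 95% Wilson intervals of the 4 values did not overlap. These intervals, used throughout, cover counting error only. The highest level was 1.82 times the lowest, and the mean was 8.35 ± 0.36 log2 CPM (SD, n = 4). Without replicate 2 the SD was 0.22.

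Egf (ENSRNOG00000053979), the precursor of epidermal growth factor, is made in the thick limb and the distal tubule and is released into urine. It had 1010, 368, 559 and 743 reads, or 74.4, 22.7, 36.4 and 48.7 CPM. Replicate 1 was again highest and replicate 2 lowest, with no overlap among the 4 counting intervals. The ratio of highest to lowest was 3.28, and the mean was 5.38 ± 0.72 log2 CPM (SD, n = 4), the widest spread of the 8 members. Only 1.62% of all genes had a larger SD.

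Kcnj1 (ENSRNOG00000059005) encodes the ROMK channel, which returns potassium to the lumen so that the thick limb's salt cotransporter can run. Its reads were 208, 253, 274 and 275, or 15.3, 15.6, 17.9 and 18.0 CPM, and all 4 counting intervals overlapped. The mean was 4.06 ± 0.12 log2 CPM (SD, n = 4). The difference between Egf and Kcnj1 on the log2 scale therefore ranged over 1.74 between replicates, and that between Umod and Kcnj1 over 0.89. Both were largest in replicate 1 and smallest in replicate 2, so members assigned to the same segment did not keep a constant ratio.

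**Figure D1:**
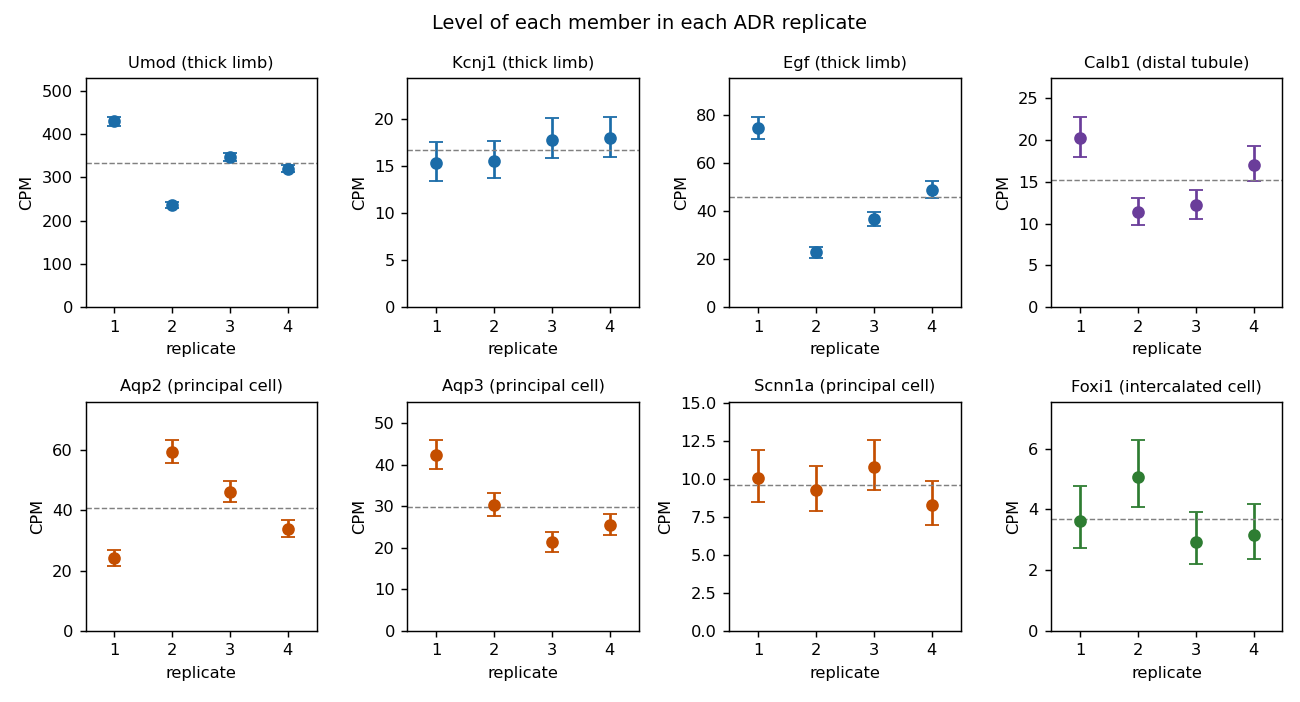
Level of each of the 8 members in CPM (y axis, from 0) in each of 4 ADR replicates (x axis). Points are single libraries, bars are 95% Wilson intervals for counting error, and the dashed line is the mean of 4. Umod and Egf have their lowest point in replicate 2, where Aqp2 and Foxi1 have their highest.

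Calb1 (ENSRNOG00000007456), the calbindin that ferries calcium through cells of the distal and connecting tubule, was the distal tubule member with a value. It had 275, 184, 187 and 260 reads, or 20.3, 11.4, 12.2 and 17.1 CPM. Replicates 1 and 4 lay above replicates 2 and 3, and the intervals of the former pair did not reach those of the latter. The mean was 3.89 ± 0.40 log2 CPM (SD, n = 4), with a ratio of highest to lowest of 1.79.

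Principal cell members went different ways. Aqp2 (ENSRNOG00000054378) is the water channel that vasopressin moves to the apical membrane. Its reads were 327, 963, 708 and 516, or 24.1, 59.4, 46.1 and 33.8 CPM. Replicate 2 was highest and replicate 1 lowest, the reverse of Umod and Egf, and the 4 intervals did not overlap. The ratio of highest to lowest was 2.47 and the mean 5.27 ± 0.56 log2 CPM (SD, n = 4); 4.17% of genes had a larger SD.

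Aqp3 (ENSRNOG00000009797), the water and glycerol channel of the basolateral membrane of the same cells, was highest where Aqp2 was lowest. It had 573, 490, 326 and 387 reads, or 42.2, 30.2, 21.2 and 25.4 CPM. Replicate 1 stood above the others, with an interval that overlapped none of theirs, and replicate 3 was lowest. The mean was 4.85 ± 0.42 log2 CPM (SD, n = 4). Without replicate 1 the SD fell to 0.25. The log2 difference between Aqp2 and Aqp3 ranged over 1.93 between replicates, more than the range of either gene alone (1.30 and 0.99).

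Scnn1a (ENSRNOG00000019368) encodes the alpha subunit of the epithelial sodium channel, the route for sodium into principal cells. Its reads were 136, 150, 165 and 126, or 10.0, 9.26, 10.8 and 8.27 CPM. The intervals of all 4 replicates overlapped, and the mean was 3.26 ± 0.16 log2 CPM (SD, n = 4), with an SD of 0.11 without replicate 4.

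Foxi1 (ENSRNOG00000006293) encodes the forkhead factor that sets intercalated cell identity and drives proton pump genes. With 49, 82, 45 and 48 reads, or 3.61, 5.06, 2.93 and 3.15 CPM, it was the thinnest measured member. Replicate 2 was highest, but its interval cleared that of replicate 3 alone. The mean was 1.86 ± 0.35 log2 CPM (SD, n = 4), and the SD was 0.15 without replicate 2.

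The spread of each member was tested over all genes. Against counting error alone, 6 of 8 members varied between replicates (chi-square test on reads, Benjamini-Hochberg adjusted p under 0.05 over all genes), and 69.5% of all genes did. The members' share was thus near that of all genes. Adjusted p-values were 1.41e-184 for Umod, 2.33e-101 for Egf, 2.61e-53 for Aqp2, 8.46e-25 for Aqp3, 1.33e-10 for Calb1 and 0.0133 for Foxi1 (chi-square test on reads). Kcnj1 and Scnn1a did not pass, at 0.172 and 0.179. The call for Foxi1 rested on replicate 2; without it the adjusted p was 0.644, and 5 of 8 members passed.

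A second test asked whether a member varied more than genes of like abundance. In limma's F test against the abundance trend, 0 of 8 members and 0.0% of all genes passed at an adjusted p under 0.05, and the lowest adjusted p of a member was 0.913. Over all genes the lowest adjusted p in this F test was 0.834, so it set no gene apart from the rest. At an unadjusted p under 0.05, 2 of 8 members passed, Egf (0.0078) and Aqp2 (0.0191), as did 5.44% of all genes. For scale, 663 genes with levels near that of Egf had a median SD of 0.14 and a 90th percentile of 0.34, against 0.72 for Egf. For Aqp2 and Aqp3 these bounds were 0.35 and 0.35, and both genes exceeded them. Calb1, Umod and Foxi1 lay between the median and the 90th percentile of genes of their level, while Kcnj1 and Scnn1a lay below the median.

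**Figure D2:**
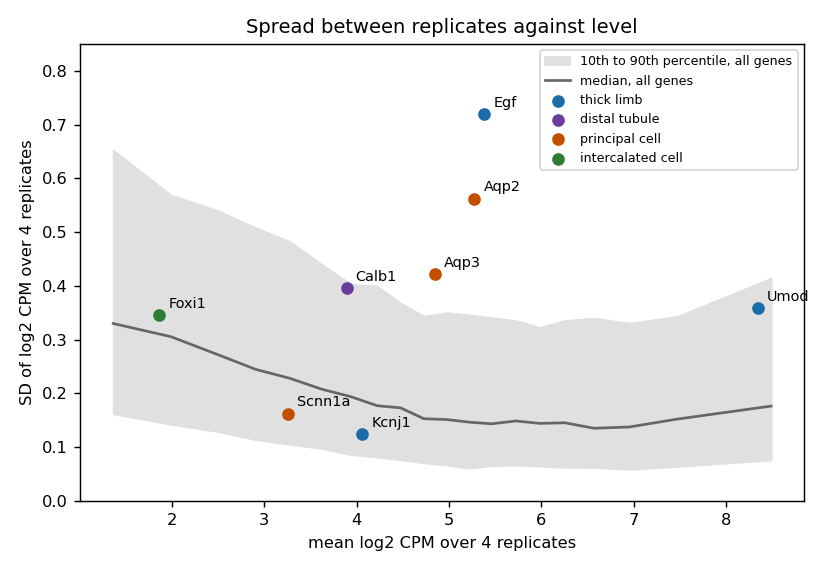
SD of log2 CPM over 4 replicates (y axis) against mean log2 CPM (x axis) for the 8 members, coloured by segment. The grey band runs from the 10th to the 90th percentile of all 13261 genes in 20 bins of level and the grey line is their median. Egf, Aqp2 and Aqp3 lie above the band, and Kcnj1 and Scnn1a below the line.

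The mean over the 8 members was 4.81, 4.53, 4.54 and 4.58 log2 CPM in replicates 1 to 4, which gives 4.62 ± 0.13 (SD, n = 4). Replicate 1 was highest and the other three lay within a narrow band; without replicate 1 the SD was 0.03. Single members had a median SD of 0.38, against 0.18 for all genes. A mean over several genes is steadier than its genes by averaging alone. To separate this from opposite movement, the variance of the mean, 0.0166, was split exactly into 0.0228 from the genes' own variances, 0.00319 from covariances within segments and -0.0094 from covariances between segments. From the genes' own variances alone the SD of the mean would have been 0.15, against 0.13 as measured. These values depended on replicate 1. Without it, the 3 terms were 0.0149, 0.00892 and -0.023, and the SD of the mean was 0.03, against 0.12 from the genes' own variances alone.

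The sign of the part between segments depended on Aqp2 and on replicate 2. Covariances between Aqp2 and members of other segments contributed -0.0219. Without Aqp2 the part between segments was 0.0164, and without replicate 2 it was 0.0107, both of the opposite sign. It stayed negative without replicate 1 (-0.023), replicate 3 (-0.016) or replicate 4 (-0.00938). Within segments, 3 of 6 member pairs moved in opposite senses, and between segments 12 of 22 did.

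The thick limb mean of Umod, Kcnj1 and Egf was 6.30, 5.45, 5.93 and 6.04 log2 CPM. The distal tubule value, Calb1 alone, was 4.34, 3.51, 3.61 and 4.09. Both were lowest in replicate 2. The principal cell mean was 4.44, 4.68, 4.46 and 4.27 log2 CPM, and Foxi1 alone, for intercalated cells, was at 1.87, 2.35, 1.57 and 1.67. Both were highest in replicate 2, the principal cell mean through Aqp2 alone. Aqp2 deviated there by 0.62 from its own mean, against 0.07 for Aqp3 and -0.04 for Scnn1a. Without Aqp2 the principal cell mean was 4.37, 4.07, 3.92 and 3.86 log2 CPM, highest in replicate 1. The SD over replicates was 0.36, 0.40, 0.17 and 0.35 for the 4 segments in this order. Without replicate 2 it was 0.19 for the thick limb, 0.11 for principal cells and 0.15 for Foxi1. The thick limb SD also depended on Egf and on the use of a mean: it was 0.19 with Egf moved to the distal tubule and 0.72 as a median. With the other listed genes of each segment joined, the 4 SDs were 0.06, 0.10, 0.04 and 0.12, each then for a mean over more genes.

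Replicates 1 and 2 were then set side by side with a fold of 1.5, a bound chosen after the values were seen. This pair holds the highest and lowest values of Umod, Egf, Calb1 and Aqp2. The members' shares were therefore bound to be raised against those of all genes, and no excess is read from them. Replicate 2 was lower than replicate 1 by more than this for 3 of 8 members, Umod, Egf and Calb1, and for 8.39% of all genes. It was higher for 1 of 8, Aqp2, and for 7.57% of all genes. The log2 differences were -0.86 for Umod, -1.71 for Egf, -0.83 for Calb1 and 1.30 for Aqp2. Just inside this bound, at less than 1.5-fold, were Aqp3 at -0.48 and Foxi1 at 0.48. These are differences between single libraries, without a replicate check.

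To see whether whole segments moved, 56 other genes of the 4 segments were taken from lists, of which 48 had values. Their mean was 4.15, 4.16, 4.09 and 4.09 log2 CPM in replicates 1 to 4, an SD of 0.04. Of the 48, 33 varied beyond counting error (chi-square test on reads), against 69.5% of all genes, and 0 passed limma's test (2 at an unadjusted p under 0.05). Replicate 2 was lower than replicate 1 by over 1.5-fold for 4 of 48 and higher for 4 of 48. The median difference between replicates 2 and 1 was -0.01 over these genes and -0.01 over all genes.

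The 13 other thick limb genes had SDs of 0.10 to 0.52 log2 units over replicates, against 0.72 for Egf, 0.36 for Umod and 0.12 for Kcnj1. Slc12a1, the salt cotransporter that defines the thick limb and the most highly counted gene of its list, was at 6.52, 6.56, 6.67 and 6.73 log2 CPM. It ranked the replicates in the same order as Kcnj1, with replicates 1 and 2 below replicates 3 and 4. Irx1, a homeobox gene and the least counted of the list, was at 1.07, 1.58, 1.57 and 0.95 log2 CPM. Casr, the calcium-sensing receptor, differed by -0.87 between replicates 2 and 1 (log2), close to Umod, and Cldn10, a paracellular sodium pore, by -0.63.

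The 15 other distal tubule genes had SDs of 0.05 to 0.45 log2 units, a range that held Calb1 (0.40). Their mean was highest in replicate 1, as Calb1 was. Slc12a3, the thiazide-sensitive cotransporter that defines the convoluted part, was at 5.98, 6.19, 6.10 and 5.97 log2 CPM, with no dip in replicate 2. Genes of calcium transport divided. Slc8a1, the sodium-calcium exchanger, differed by -0.84 between replicates 2 and 1, close to Calb1, and the log2 difference between these genes ranged over 0.24 across replicates. Trpv5, the apical calcium channel of the same cells, differed by 0.83 in the other direction, and its log2 difference from Calb1 ranged over 1.67. Wnk4, a kinase that controls Slc12a3, differed by 0.96. Wnk1, a kinase of the same family and the most highly counted of the list, had an SD of 0.05, and Kcnj10, a basolateral potassium channel and the least counted, one of 0.41.

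The 9 other principal cell genes had SDs of 0.09 to 0.39 log2 units, against 0.56 for Aqp2, 0.42 for Aqp3 and 0.16 for Scnn1a. Scnn1b and Scnn1g, the beta and gamma subunits that join Scnn1a in the sodium channel, had SDs of 0.19 and 0.25 and did not vary beyond counting error (adjusted p = 0.259 and 0.127, chi-square test on reads). Hsd11b2, which shields the mineralocorticoid receptor from glucocorticoid, was at 5.32, 5.50, 5.51 and 5.51 log2 CPM. Sgk1, a kinase induced by aldosterone and by glucocorticoid and the most highly counted of the list, differed by 0.31 between replicates 2 and 1. Avpr2, the vasopressin receptor that acts on Aqp2, was the least counted. At 2.28, 2.10, 3.84 and 2.95 CPM it was highest in replicate 3, and its replicates 1 and 2 differed by -0.13, whereas Aqp2 differed by 1.30.

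The 11 other intercalated cell genes had SDs of 0.15 to 0.42 log2 units, a range that held Foxi1 (0.35). On average they were highest in replicate 2, as Foxi1 was, and lowest in replicate 4. Atp6v1b1 and Atp6v0a4, proton pump subunits known as Foxi1 targets, were not highest in replicate 2 as Foxi1 was. Atp6v1b1 had 243, 284, 347 and 210 reads and was highest in replicate 3. Atp6v0a4, the most highly counted of the list, had 1722, 1626, 1078 and 1526 reads. It was highest in replicate 1 and, like Foxi1, lowest in replicate 3. The intervals of Foxi1 in replicates 1, 3 and 4 overlapped, so its own order there was not resolved. Other pump subunits were highest in replicate 2, as Foxi1 was: Atp6v0d2, the least counted, had 45, 75, 63 and 39 reads, and Atp6v1g3 had 118, 179, 149 and 86. Slc26a4 (pendrin), the chloride-bicarbonate exchanger of base-secreting cells, had 177, 296, 235 and 172 reads and was highest in replicate 2. Slc4a1, the exchanger of acid-secreting cells and also of red blood cells, was at 27.5, 24.0, 32.1 and 36.7 CPM and was lowest there. Of the 11 genes, 5 were highest in replicate 2, as were Foxi1 and 21.3% of all genes, and Slc4a1 was the 1 gene lowest there, as were 31.5% of all genes.

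**Figure D3:**
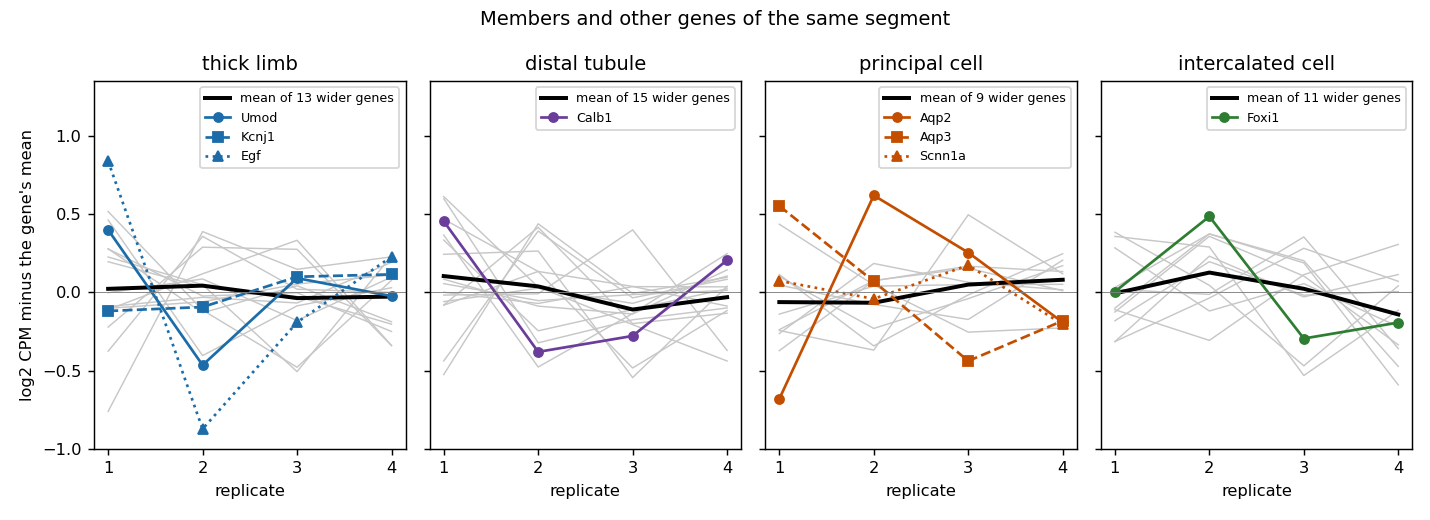
Log2 CPM of each gene less its own mean (y axis) in 4 replicates (x axis), with 1 panel for each segment. Coloured lines are members, grey lines other genes of the segment and the black line their mean; lines only join the values of a gene, since replicates have no order. In every panel grey lines lie on both sides of zero in each replicate, and the black line, as a mean of many genes, is narrowed by averaging.

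Among 10 listed genes shared by several distal epithelia, the mean was 4.82, 5.13, 4.74 and 4.91 log2 CPM. Cdh16, a kidney cadherin and the most highly counted, had 3191, 3639, 2113 and 3686 reads and was low in replicate 3. Krt18, a keratin and the least counted, had 46, 78, 67 and 45 reads. Replicate 2 was higher than replicate 1 by over 1.5-fold for 3 of 10, against 7.57% of all genes, and lower for 0 of 10, against 8.39%. The 3 were the epithelial transcription factors Elf3 and Tfap2b and the keratin Krt8, with log2 differences of 1.19, 0.80 and 0.64. Epcam, an epithelial adhesion molecule, Pou3f3, a transcription factor, and Cdh16 differed by -0.27, -0.21 and -0.07.

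Markers of other cell types were set beside these values. The 12 podocyte markers lay 0.46 above, then -0.58, -0.10 and 0.23 from their mean level in replicates 1 to 4. All 12 of 12 were above their own mean in replicate 1 and 0 of 12 in replicate 2, and their summed level ran from 7946 to 13714 CPM. Egf deviated by 0.84, -0.87, -0.19 and 0.23, Umod by 0.40, -0.47, 0.09 and -0.02, and Calb1 by 0.45, -0.38, -0.28 and 0.21. The 12 proximal tubule markers deviated by 0.48, 0.08, -0.61 and 0.05, with 12 of 12 above their own mean in replicate 1 and 0 of 12 in replicate 3, and a summed level of 4544 to 9233 CPM. Aqp3 deviated by 0.55, 0.07, -0.44 and -0.18. The 8 endothelial markers with values deviated by -0.17, 0.07, 0.18 and -0.08. In replicates 1 to 4, 0, 6, 7 and 2 of 8 were above their own mean, and their summed level ran from 5650 to 7309 CPM. Aqp2 deviated by -0.68, 0.62, 0.25 and -0.19. The 6 mesangial markers deviated by 0.01, -0.29, 0.02 and 0.27, with 1 of 6 above its own mean in replicate 2 and 6 of 6 in replicate 4, and a summed level of 1784 to 2252 CPM. The 5 leukocyte markers deviated by -0.36, 0.03, 0.28 and 0.05, with 1 of 5 above its own mean in replicate 1, and a summed level of 680 to 890 CPM. The 3 thin limb markers with values deviated by -0.17, 0.32, -0.25 and 0.09, with 3 of 3 above their own mean in replicate 2, as Aqp2 was, and a summed level of 187 to 435 CPM. Ptgs2, a cyclooxygenase of the macula densa, deviated by 0.68, -0.72, -0.25 and 0.29, the same order as Egf. The part of RNA of any of these cell types in the members' values was not tested.

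**Figure D4:**
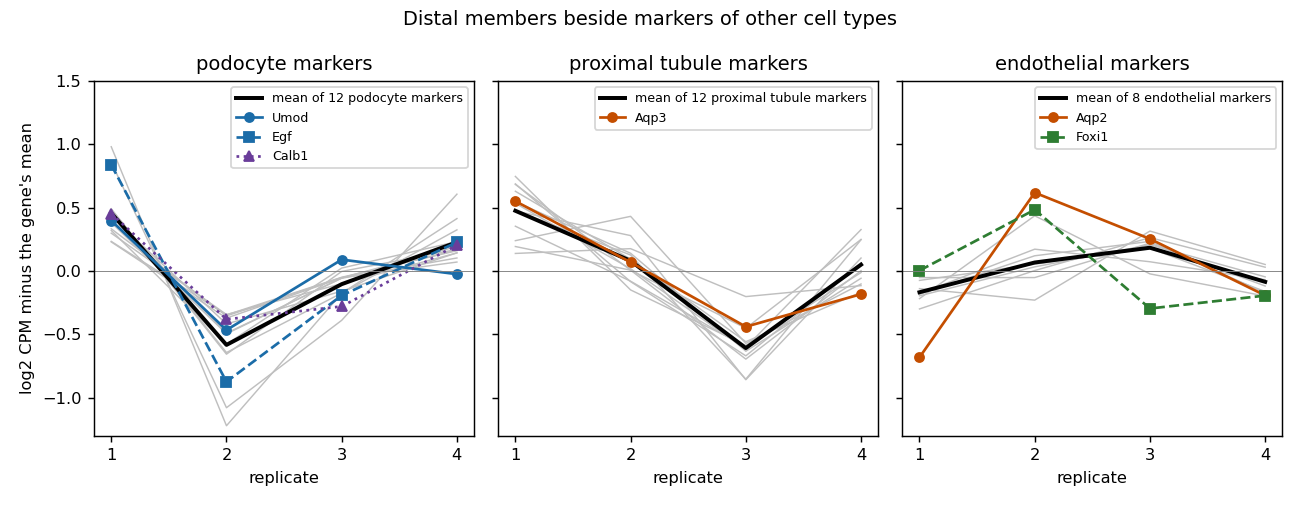
Log2 CPM of each gene less its own mean (y axis) in 4 replicates (x axis). Grey lines are markers of the cell type in the panel's title, the black line is their mean and coloured lines are distal members, paired with the panels after the values were seen; lines only join values of a gene. Umod, Egf and Calb1 lie high in replicate 1 and low in replicate 2 with podocyte markers. In replicate 4 the podocyte markers lie above their own means, and Umod does not. Aqp3 is lowest in replicate 3 with proximal tubule markers, and Aqp2 moves over a wider range than endothelial markers. Foxi1 is lowest in replicate 3, where the mean of the endothelial markers is highest.

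For the 3 members of widest spread with at least 100 reads on average, the most similar genes were found among 11272 others by the Euclidean distance of mean-centred log2 values over 4 samples. Nearest to Egf were Aldh1a3 (0.09), Irs1 (0.11) and Tmod2 (0.14). Nearest to Aqp2 were Eno3 (0.08), the pseudogene AC126148.1 (0.13) and Mss51 (0.14). Nearest to Aqp3 were Aldh1l1 (0.03), Cryl1 (0.07) and Grhpr (0.09). With 578, 505, 336 and 401 reads, Aldh1l1 followed Aqp3 more closely than any other of the genes searched. None of these 9 genes was in the distal lists, and with 4 samples and this many genes a close neighbour is easily found.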

How the data were processed

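Poly(A) RNA of sieved glomeruli was sequenced as stranded paired-end libraries, per the labels' protocols. The submitters' processing notes name HISAT2, featureCounts (Subread), limma and the build Rnor_6.0; versions, use of strand and the filter on low genes are not given in the sources used here. The deposited values are log2 values, 1 column per sample. From the values, each is the log2 CPM of a whole number of reads plus 0.5: reads recovered in this way were whole within 0.01 for 100% of values. Of 13265 rows, 4 with displaced cells were left out; 13261 genes were used, and 0 value columns belonged to no sample. Members were matched by symbol.

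Counting error was tested by a chi-square index of dispersion on recovered reads (3 degrees of freedom), and excess variance by the F test of residual variance against the trend in an intercept-only fit (limma 3.58.1), both over all genes with Benjamini-Hochberg adjustment. Both were tested on simulated data. The counting test had been planned for counts and was kept on recovered reads. Intervals are Wilson intervals (scipy 1.17.1). Alternatives left out each replicate, scaled by median-of-ratios factors, left 13 mitochondrial genes out of the totals, used log2(CPM + 1), required 1 log2 CPM in each sample, or changed the segment lists. Named genes are the members, the most and least counted gene of each list, and the 3 nearest genes of 3 members; other genes of the lists were named after their values were seen. Members and lists were chosen with earlier results of these data known. RefSeq promoter windows were matched by symbol for 7 of 9 members; Calb1 and Scnn1a had no entry.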

Additional observations from a re-analysis of the deposited data

Results flagged for a closer look

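Of 69 results examined, 3 had 1 replicate far from the rest: its gap to the nearest value, divided by the range, passed Dixon's 95% bound. About 3.45 would do so by chance, and none of the 3 was a member. Hsd11b2 (ratio 0.939) was set apart by replicate 1, with 542 reads against 695 to 733, and its spread did not exceed counting error (adjusted p = 0.0879, chi-square test on reads). Cdh16 (0.868) and Cdh1 (0.845) were both set apart by low values in replicate 3, at 2113 and 367 reads.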

How the results depend on the processing

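Of 256 recomputed values, 236 kept their call or stayed within their criterion. Between 5 and 6 members varied beyond counting error whichever replicate was left out and under each scaling and filter tried. In these settings and on log2(CPM + 1), where the counting test was not run, 0 passed limma's test. The mean over members, 4.62, was 4.76 with mitochondrial genes out of the totals, a scaling that raised all genes by 0.11 to 0.19, and 4.35 as a median. As medians, the thick limb was at 5.38 and principal cells at 4.65 log2 CPM. Without Aqp2, an alternative added after the data were seen, the principal cell mean was 4.05. Joined with the wider lists, the thick limb, distal tubule, principal and intercalated cell levels were 3.93, 4.41, 4.64 and 3.80, since other genes enter; with Egf moved to it, the distal tubule was at 4.63.

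The part of the variance between segments, -0.0094, was examined under alternatives added after the data were seen. It changed sign without Aqp2 (0.0164) and ran from -0.023 (without replicate 1) to 0.0107 (without replicate 2) when each replicate was left out; the cause was not tested. The call for Foxi1 was lost without replicate 2 (adjusted p = 0.644, chi-square test on reads). SDs moved by over 1.5 times for Umod (0.22) and Foxi1 (0.15) without replicate 2, Aqp3 (0.25) without replicate 1 and Scnn1a (0.11) without replicate 4. No paired analysis was possible because there is a single group. Depth limits Foxi1, at 45 to 82 reads, most.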
